A study of Bos taurus with 45 samples.

Results

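Transcripts of 8 genes that carry, make, break down or store heme and iron were followed through cultures of bovine endometrium and conceptus taken on Day 16 after estrus. The genes were taken by symbol and are the α-type globins HBA, HBM and HBQ1, the erythroid heme synthesis enzyme ALAS2, heme oxygenase HMOX1, the ferritin subunits FTH1 and FTL, and the transferrin receptor TFRC. All 8 had a row among the 27270 genes of the endometrial counts and among the 16149 genes of the conceptus counts. They were chosen by their measured levels, in earlier results of these data, in conceptus sections cultured alone or on endometrium and in the explants under them. Their values in conceptus tissue are therefore a description: no p-value is given for them there, and how many were called is counted without being read as a result. The endometrial comparison was tested, with the limit that levels in the explants under sections, which enter it, were part of that choice.

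The 45 libraries of polyadenylated RNA fell into 4 groups after 12 h of culture in RPMI medium. Endo (n = 13) was intercaruncular endometrium of cyclic, not bred heifers cultured alone, and Endo-IVD Conc endometrium (n = 15) was endometrium of 11 of the same 13 uteri cultured with a section of an in vivo derived (IVD) conceptus, recovered from a heifer bred by artificial insemination. IVD Conc (n = 8) was a section of each of 8 conceptuses cultured alone, and Endo-IVD Conc conceptus (n = 9) was a section of 7 of these conceptuses cultured on endometrium of 6 uteri, 2 conceptuses giving sections on a pair of uteri each. The heifers were Angus-Holstein crosses, conceptus sex was unknown, and the explants, taken from cyclic uteri, model endometrium that had not met a conceptus before culture. Libraries held 44.2 to 64.0 M (mega) counts in endometrium and 58.6 to 104 M in conceptus tissue, with RNA integrity numbers of 5.2 to 9.3 and of 7.5 to 10 in the labels. Levels are counts of a gene per 1000000 counts of its library (CPM) after scaling by trimmed mean of M-values (TMM).

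Hemoglobin is built from α-type and β-type globin chains, each holding a heme whose iron binds oxygen, and its genes are active in red blood cell precursors. Heme is made in mitochondria and cytosol, starting with ALAS2 in erythroid cells and ALAS1 elsewhere, and HMOX1 opens the heme ring and frees its iron. Cells take up iron bound to transferrin through TFRC and hold the surplus in ferritin shells of FTH1 and FTL, and iron regulatory proteins ACO1 and IREB2 stabilize TFRC mRNA and block ferritin translation when iron is scarce. In cattle the elongating conceptus at this stage is mostly trophoblast and not yet attached, and the endometrium is a vascularized tissue that holds blood.

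In the conceptus libraries the defining trophoblast markers were present, the 18 listed genes found there summing to 918 to 57030 CPM in IVD Conc and 2743 to 50771 CPM in Endo-IVD Conc conceptus. In endometrial libraries the 11 stromal markers summed to 4694 to 21916 CPM in Endo and 4319 to 11213 CPM in Endo-IVD Conc endometrium. Sections cultured on uterus 38 stood apart from the other sections in HBA and HBM level. They were the only sections of conceptuses 50 and 66 on endometrium, so that uterus and conceptus cannot be told apart for them, and fitted differences and median shares of explant level of the globins are given with and without these conceptuses. In bulk tissue, fewer cells of a type and less RNA per cell cannot be told apart.

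HBA, the adult α-globin, was low in every section cultured alone and high in most sections cultured on endometrium. In IVD Conc the lowest HBA level was 0.417 CPM, the median 0.907 CPM and the highest 2.02 CPM. In Endo-IVD Conc conceptus the lowest was 1.16 CPM, the median 34.2 CPM and the highest 69.3 CPM. The means were 1.09 ± 0.591 CPM (SD, n = 8) and 32.5 ± 25.1 CPM (SD, n = 9), and the fitted difference was a log2 fold change of 4.89 (SE 0.74), or of 5.07 without conceptuses 50 and 66. The groups overlapped only through the 2 sections on uterus 38, at 1.16 CPM (conceptus 50) and 1.63 CPM (conceptus 66), and the remaining 7 sections all lay above every section cultured alone.

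Each section could be set beside the section of the same conceptus cultured alone. HBA was higher on endometrium in 9 of 9 such pairs, by 1.77-fold to 99.5-fold with a median of 23.7-fold. The smallest ratios, 1.77-fold and 2.78-fold, were those of conceptuses 66 and 50 on uterus 38. The level differed between sections of 1 conceptus on different uteri. Conceptus 26 had 11.4 CPM of HBA on uterus 14 and 47.9 CPM on uterus 39, and conceptus 47 had 21.7 CPM on uterus 19 and 69.3 CPM on uterus 54. It also differed between conceptuses on 1 uterus, with 34.2 CPM (conceptus 8) against 11.4 CPM (conceptus 26) on uterus 14 and 61.4 CPM (conceptus 22) against 21.7 CPM (conceptus 47) on uterus 19.

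HBM, a minor globin of the α cluster, was also low in every section cultured alone and higher in most sections on endometrium. Its level in IVD Conc was 0.0457 CPM at the lowest, 0.106 CPM at the median and 0.217 CPM at the highest, which were 4 to 15 reads per library. In Endo-IVD Conc conceptus it was 0.0266 CPM at the lowest, 1.63 CPM at the median and 4.03 CPM at the highest. The lowest values, 0.0266 CPM from 2 reads (conceptus 50) and 0.122 CPM from 8 reads (conceptus 66), again belonged to uterus 38, and the other 7 sections lay between 0.764 and 4.03 CPM, above all 8 sections cultured alone. HBM was higher on endometrium in 8 of 9 pairs, with a median of 14.3-fold and a fitted log2 fold change of 4.02 (SE 0.75), or of 4.35 without conceptuses 50 and 66. The order of sections was not that of HBA, with the highest HBM in conceptus 22 on uterus 19 and the highest HBA in conceptus 47 on uterus 54. Across the 17 conceptus libraries HBM was the gene whose log2 CPM correlated most closely with that of HBA (Pearson r = 0.96), a description over sections that share conceptuses and uteri.

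**Figure D1:**
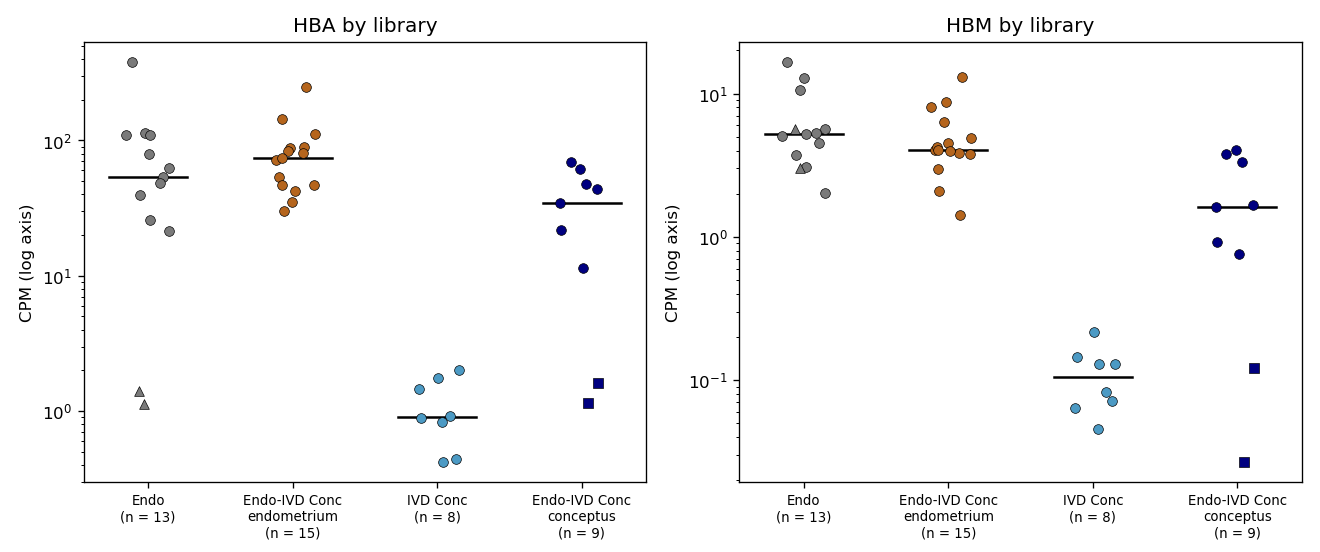
HBA (left) and HBM (right) level in CPM on a log axis for every library of the 4 groups, with a line at each group's median. Squares are the sections on uterus 38, at 1.16 and 1.63 CPM of HBA, and triangles the Endo explants of uteri 19 and 39, at 1.42 and 1.13 CPM of HBA, while the other 7 co-cultured sections lie at 11.4 to 69.3 CPM of HBA.

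HBQ1, the θ-globin, whose protein has no settled role, was closer in level between the groups. Its level ranged from 0.462 to 1.38 CPM in IVD Conc (median 0.706 CPM) and from 0.365 to 3.61 CPM in Endo-IVD Conc conceptus (median 1.12 CPM), and the groups overlapped. It was higher on endometrium in 8 of 9 pairs, with a median of 2.21-fold, and the exception was conceptus 66 on uterus 38 at 0.396-fold. The fitted log2 fold change was 1.13 (SE 0.40), or 1.304 without conceptuses 50 and 66. HBM, HBA, HBA1 and HBQ1 are neighbours in this order in the RefSeq annotation of the ARS-UCD2.0 assembly, a later build than the ARS-UCD1.2 used for the counts. HBA and HBA1 are closely similar copies, so reads of both could have been given to HBA, shared or dropped, and the HBA level is uncertain in that respect.

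The HBA level of a section was a sizable share of that in the explant on which the section had lain, as far as CPM of libraries aligned with different tools can be set side by side. Over the 9 pairs, section HBA was 33.3% of explant HBA at the median, 2.75% at the lowest (conceptus 50 on uterus 38) and 83.3% at the highest (conceptus 47 on uterus 54). The share was 3.50% in the other section on uterus 38 and 15.3% to 83.3% in the remaining 7 pairs, with a median of 54.2% without conceptuses 50 and 66. Explant HBA in these pairs ranged from 42.0 to 144 CPM, and its lowest values, 42.0 and 46.5 CPM, were those of uterus 38. For HBM the share was 39.99% at the median, 0.669% at the lowest and 113% at the highest, and for HBQ1 it was 248% at the median, 65.1% at the lowest and 1017% at the highest. Without conceptuses 50 and 66 these medians were 43.7% and 284%.

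Most markers of endometrial cells were a smaller share of their explant level than HBA in the same sections, with 5 exceptions. DCN, a proteoglycan of stromal fibroblasts, had 0.186 to 1.93 CPM in sections and 1737 to 4763 CPM in their explants, a median share of 0.0101%. COL3A1, a fibrillar collagen, had 0 to 0.540 CPM in sections and 730 to 2336 CPM in explants, a median share of 0.0023%. Of 7 stromal markers present in both tissues, 0 had a median share as high as that of HBA, their medians running from 0.0023% to 4.23%. The middle marker's share was 0.142% for stroma, 10.9% for epithelium, 6.14% for leukocytes, 2.81% for endothelium and 3.44% for smooth muscle. Such shares were as high as that of HBA for 1 of 7 epithelial markers (FOXA2, also a gene of endoderm, at 584%), for 1 of 8 leukocyte markers (AIF1, a calcium-binding protein of macrophages, at 764%), for 1 of 9 endothelial markers (ESAM, an adhesion molecule) and for 2 of 8 smooth muscle markers (TAGLN and SMTN, which bind actin).

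Red cell markers gave no common share. GYPC, a glycoprotein of the red cell membrane also made elsewhere, had 16.9 to 34.7 CPM in explants and 0 to 0.890 CPM in their sections, a median share of 0.0897%. SPTB and BPGM, β-spectrin and the enzyme that makes the hemoglobin regulator bisphosphoglycerate, had median shares of 136% and 154%. EPOR, the erythropoietin receptor, had 8.45%, and NFE2, KEL and TRIM10 were higher in sections, KEL and TRIM10 each being at 0 in 1 explant. The 8 of 22 erythroid markers with a conceptus row summed to 10.9 to 59.6 CPM in IVD Conc and 7.82 to 50.2 CPM in Endo-IVD Conc conceptus. Of these, 7 were tested and 0 passed at an adjusted p of at most 0.05 in edgeR's quasi-likelihood test, 0 at an unadjusted p of that size and 0 in DESeq2. Stromal markers summed to 17 to 280 CPM in IVD Conc and 15.5 to 168 CPM in Endo-IVD Conc conceptus, leukocyte markers to 6.45 to 98.3 CPM and 9.09 to 45.9 CPM, and endothelial markers to 29.7 to 90.7 CPM and 54.3 to 133 CPM. The β-globin HBB had no row in the conceptus counts, and AHSP, SLC4A1, KLF1 and GATA1 were not analysed here in conceptus tissue. The part of carried blood or of transcription within the section in the HBA level was not tested.

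**Figure D2:**
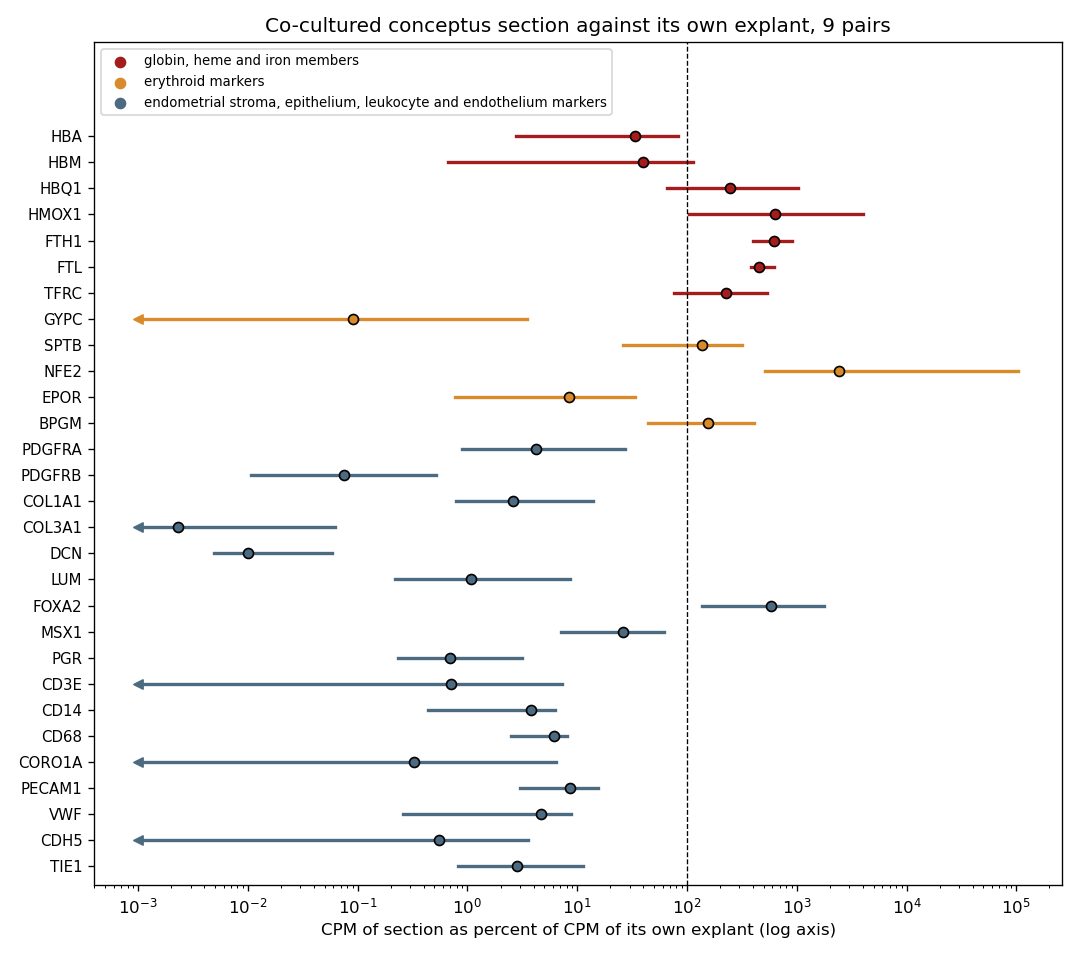
Level in a co-cultured section as a percent of the level in its own explant, on a log axis, for 7 members, 5 erythroid markers and 17 markers of endometrial cell types over 9 pairs. Points are medians, lines run from the lowest to the highest pair, arrowheads mark a section at 0, and the dashed line is equality, with HBA at 33.3%, GYPC at 0.0897% and DCN at 0.0101%.

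The ratio of HBA to HBM reads described the globins independently of library scaling. It was 3.23 to 22.8 in IVD Conc with a median of 9.62, and 13.4 to 43.5 in Endo-IVD Conc conceptus with a median of 18.4. In Endo-IVD Conc endometrium it was 7.78 to 63.2 with a median of 13.2. In Endo it was 0.25 to 35.8 with a median of 10.7. The range of the co-cultured sections lay within that of the co-cultured explants. The upper end of the section range, 43.5, rested on 2 HBM reads (conceptus 50 on uterus 38). The highest explant ratios, 63.2 and 48.4, were both of uterus 39.

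ALAS2, which catalyzes the entry step of heme synthesis in erythroid cells, was lower in most sections cultured on endometrium. Its level was 0.462 CPM at the lowest, 2.22 CPM at the median and 7.75 CPM at the highest in IVD Conc, and 0.165, 0.820 and 6.09 CPM in Endo-IVD Conc conceptus. It was lower on endometrium in 8 of 9 pairs, with a median of 0.229-fold, and higher in 1, conceptus 22 on uterus 19, where it went from 0.462 to 6.09 CPM. The groups overlapped, and the fitted log2 fold change was -1.08 (SE 0.69). It was -1.81 with the conceptus as a block, -1.999 without conceptus 22 and -0.59 without conceptus 47. Between sections cultured alone, ALAS2 was highest in conceptuses 47 and 71 and lowest in conceptuses 22 and 5, an order that HBA did not share.

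HMOX1 differed widely between conceptuses. In IVD Conc its level was 162 CPM at the lowest (conceptus 5), 716 CPM at the median and 3116 CPM at the highest (conceptus 66). In Endo-IVD Conc conceptus it was 212 CPM at the lowest (conceptus 50), 1862 CPM at the median and 10888 CPM at the highest (conceptus 8), with another 8092 CPM in conceptus 26, both on uterus 14. It was higher on endometrium in 6 of 9 pairs, by up to 8.21-fold (conceptus 71), and lower in conceptus 66 (0.523-fold) and conceptus 50 (0.873-fold) on uterus 38 and in conceptus 26 on uterus 39 (0.924-fold). Conceptus 26 thus differed between uteri, at 8092 CPM on uterus 14 and 1537 CPM on uterus 39, from 1664 CPM alone. The groups overlapped, and the fitted log2 fold change was 1.711 (SE 0.68), or 2.27 without conceptuses 50 and 66.

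TFRC was lower in every section cultured on endometrium than in the section of the same conceptus cultured alone, in 9 of 9 pairs, by 0.239-fold to 0.796-fold with a median of 0.450-fold. Its level was 37.6 CPM at the lowest, 103 CPM at the median and 267 CPM at the highest in IVD Conc, and 23.4, 44.2 and 108 CPM in Endo-IVD Conc conceptus. The ranges overlapped, and conceptuses differed from each other within both groups. Conceptus 50 was high in both, at 201 and 108 CPM, and conceptus 66 low in both, at 37.6 and 29.9 CPM. The fitted log2 fold change was -1.44 (SE 0.40), or -1.68 without conceptuses 50 and 66.

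Ferritin mRNAs were modestly higher on endometrium. FTH1, the heavy subunit that oxidizes iron, ranged from 4307 to 7131 CPM in IVD Conc (median 5609 CPM) and from 5726 to 9702 CPM in Endo-IVD Conc conceptus (median 8533 CPM). FTL, the light subunit, ranged from 1170 to 1669 CPM (median 1265 CPM) and from 1570 to 3230 CPM (median 1838 CPM). Each was higher in 8 of 9 pairs, FTH1 by a median of 1.43-fold and FTL by 1.39-fold, and the exception for both was conceptus 22 on uterus 19, at 0.898-fold and 0.991-fold. The groups overlapped for both genes, with log2 fold changes of 0.50 (SE 0.16) for FTH1 and 0.55 (SE 0.16) for FTL. Both ferritins were higher in the sections on uterus 38 than in their partners cultured alone, by 1.31-fold and 1.62-fold for FTH1 and by 1.35-fold and 1.58-fold for FTL.

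**Figure D3:**
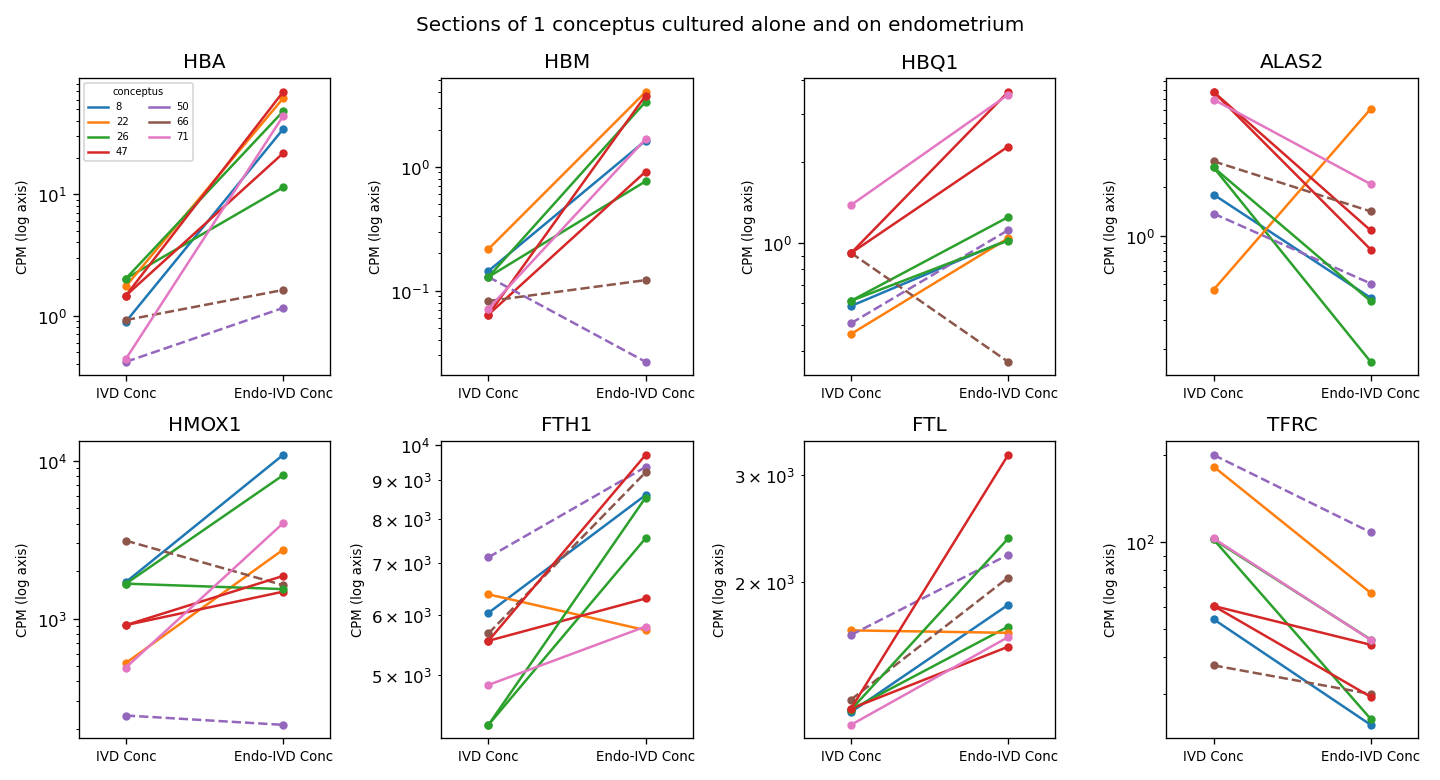
Level of the 8 members in CPM on log axes in a section cultured alone (IVD Conc) and in each section of the same conceptus cultured on endometrium (Endo-IVD Conc), 9 pairs from 7 conceptuses. Colours are conceptuses and dashed lines the sections on uterus 38; TFRC is lower on endometrium in 9 of 9 lines and HBA higher in 9 of 9.

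Among all 14746 conceptus genes tested, 7.24% were called in either direction, 3.59% higher and 3.65% lower, and of the 8 members 3 were called higher (HBA, HBM and FTL) and 1 lower (TFRC). The members were chosen with this comparison known, so nothing is read from that count or from their calls in the other fits below. With each conceptus as a block, 4.43% of genes and 2 of the members (HBA and TFRC) were called, and with co-cultures of 1 conceptus summed in that fit the same 4 members as without a block. DESeq2 and the fit with 2 factors of unwanted variation each called 7, all but ALAS2. Leaving out each conceptus in turn left 2 or 3 members called, HBA and HBM each time. FTL was lost whichever conceptus was left out, and TFRC without conceptus 5, 8, 22, 26, 47 or 71. Without conceptuses 50 and 66, HBA, HBM and TFRC were called.

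HMOX1 and TFRC ran in opposite orders among conceptuses cultured alone. Conceptus 5 had the lowest HMOX1 (162 CPM) and the highest TFRC (267 CPM), and conceptus 66 the highest HMOX1 (3116 CPM) and the lowest TFRC (37.6 CPM). Over the 8 conceptuses, Pearson's r of log2 CPM was -0.90 and Spearman's rho -0.95. This was a description of 1 of 56 relations computed between members, or in Endo also with HBB. Relations in Endo used 9 explants, or 7 for those of HBA. Left out of all of them were the explants of uteri 15, 17, 45 and 53, which stood apart in HMOX1, FTH1 or FTL. Relations of HBA also left out uteri 19 and 39, which stood apart in HBA. None of the 56 passed a permutation test adjusted over them, and 5 passed by Pearson and 2 by Spearman before adjustment. Levels in sections cultured alone were part of the choice of members, so nothing is read from those counts. Without the 2 conceptuses farthest from the median of HMOX1, r was -0.77. Over all 17 conceptus libraries, in which 7 conceptuses appear more than once, r between HMOX1 and TFRC was -0.86.

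**Figure D4:**
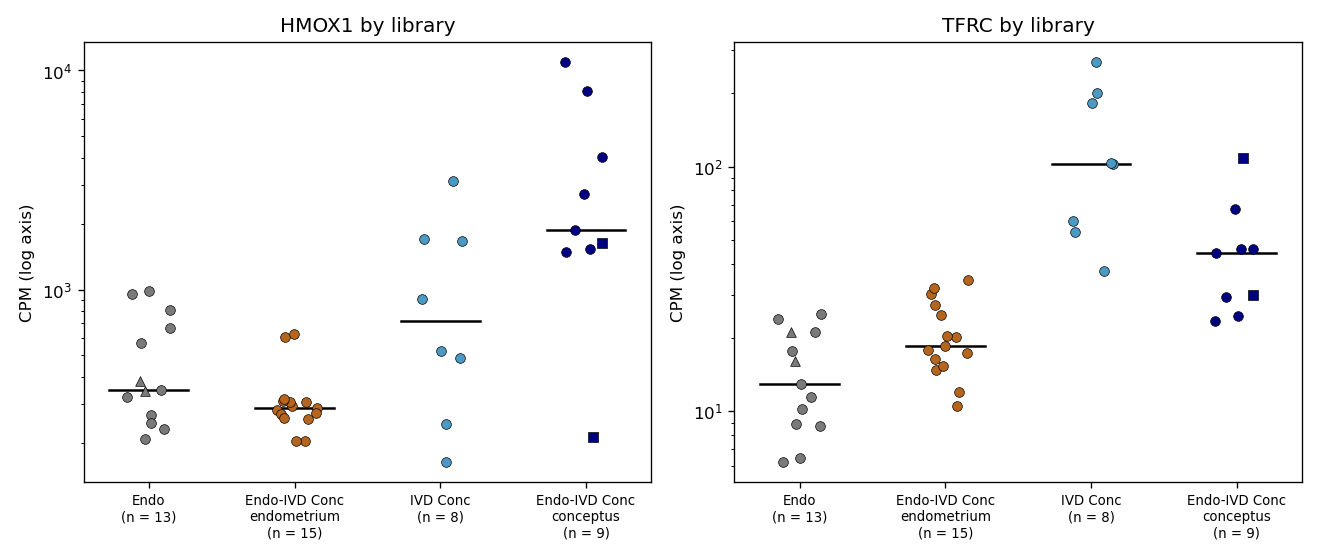
HMOX1 (left) and TFRC (right) level in CPM on log axes for every library, with group medians as lines and the symbols of the globin plot. HMOX1 spans 162 to 3116 CPM in IVD Conc and 212 to 10888 CPM in Endo-IVD Conc conceptus, and TFRC spans 37.6 to 267 CPM and 23.4 to 108 CPM.

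The genes most like HBA over the 17 conceptus libraries, after HBM, were MAP3K12, GUCA1A, DDX19B, MRPL45, MAP2K2, TUBB and MAPK3, with Pearson r of log2 CPM from 0.88 to 0.92. Those most like HMOX1 included CSGALNACT1 (r = 0.96), TRPV2, SLC35C1, SMTN, TRPV3 and GAB2, the last at r = 0.90. No other member was among them. In the 28 endometrial libraries the highest r with HBA was 0.70 (TMEM213), followed by MOGAT2, LY6E, GRN, EEPD1, WNT7A, STN1 and LYZ1, and r between HBA and HBM was 0.35. With HMOX1 it was 0.82 (PIGS), followed by SNX17, DYNLT3, MIEN1, MGME1, ZBTB8OS, RAB4B and SULT1A1.

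In endometrium, the comparison asked how explants of the same stage responded to a conceptus section. Of 16443 genes tested, 7.13% were called, 4.98% higher and 2.15% lower in Endo-IVD Conc than in Endo. Of the 8 members, 7 passed the filter on low counts and 0 were called by edgeR's quasi-likelihood test, while 3 had an unadjusted p of at most 0.05 and 0 were called by DESeq2. Their median log2 fold change was -0.29, against -0.04 over all genes tested. ALAS2 was below the filter, at 0 counts in 7 of 13 Endo and 6 of 15 Endo-IVD Conc libraries and at most 0.227 CPM.

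Endometrial HBA was 1.13 CPM at the lowest, 53.6 CPM at the median and 378 CPM at the highest in Endo, and 29.9, 74.5 and 249 CPM in Endo-IVD Conc. The groups overlapped, and the log2 fold change was 0.05 (SE 0.50, edgeR adjusted p = 0.973). With the uterus as a block it was 0.59 (adjusted p = 0.597), with HBA higher in 7 of 11 uteri. The highest value of each group came from uterus 45. The 2 lowest were the Endo explants of uteri 39 and 19, at 1.13 and 1.42 CPM, and apart from them the lowest of all explants was 21.5 CPM. Co-cultured explants of the same uteri had 89.4 and 144 CPM (uterus 39) and 88.5 and 71.9 CPM (uterus 19).

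HBM was not low in these explants. It had 3.03 CPM in the Endo explant of uterus 39 and 5.67 CPM in that of uterus 19, within the Endo range of 2.02 to 16.5 CPM, and the ratio of HBA to HBM reads was below 1 in these libraries alone. Over all uteri, endometrial HBM had means of 6.402 ± 4.27 CPM (SD, n = 13) in Endo and 5.07 ± 2.96 CPM (SD, n = 15) in Endo-IVD Conc, with a difference of -0.34 on the log2 scale (SE 0.30, edgeR adjusted p = 0.602). Without uteri 19 and 39, the log2 fold change of HBA was -0.27, with an edgeR adjusted p of 0.830. Endometrial HBQ1 had means of 0.885 ± 0.510 CPM (SD, n = 13) and 0.724 ± 0.361 CPM (SD, n = 15), with an edgeR adjusted p of 0.641.

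Other globins were at low levels or at 0 in endometrium. HBB, the adult β-globin, ranged from 0 to 3.19 CPM in Endo and from 0 to 4.27 CPM in Endo-IVD Conc, with an edgeR adjusted p of 0.946. HBG, HBE1, HBE2 and HBE4, globins of the same cluster, had 0 counts in all 28 libraries. The non-erythroid globins MB (myoglobin) and CYGB (cytoglobin) had means of 1.03 and 5.69 CPM in Endo and 1.46 and 4.86 CPM in Endo-IVD Conc, with edgeR adjusted p of 0.409 and 0.700, and NGB (neuroglobin) was at most 0.226 CPM. In conceptus tissue CYGB was the other globin tested, and it fell from 6.87 to 2.82 CPM, a log2 fold change of -1.29 (SE 0.34, edgeR adjusted p = 0.0340), lower in 6 of 7 conceptuses. With the conceptus as a block its adjusted p was 0.0656, and the call was lost without conceptus 5, 8, 22, 26, 47 or 71, with an adjusted p of up to 0.144.

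The Endo explants of uteri 15, 17, 45 and 53 were high in HMOX1 and FTL, and those of 15, 45 and 53 also in FTH1. HMOX1 was 665 to 982 CPM in the Endo explants of uteri 15, 17, 45 and 53 and 207 to 572 CPM in those of the other 9 uteri. FTL was 789 to 889 CPM in these 4 and 324 to 570 CPM in the others. FTH1 was 2711 to 2841 CPM in uteri 15, 45 and 53, against 1017 to 1485 CPM in the remaining 10. TFRC was lowest in the same 3, at 6.18 to 8.69 CPM against 8.91 to 25.1 CPM in the others, and highest in uterus 17. Of these uteri, 15 and 17 had no co-cultured explant, so their libraries entered one side of the comparison.

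Over all libraries, endometrial HMOX1 had means of 487 ± 279 CPM (SD, n = 13) and 321 ± 125 CPM (SD, n = 15), with a difference of -0.60 on the log2 scale (SE 0.24, edgeR adjusted p = 0.128). With the uterus as a block, which compares explants within uteri, it was -0.26 with an adjusted p of 0.490, and without uterus 16 it was -0.76 with an adjusted p of 0.0373, past the threshold. FTH1 had a log2 fold change of -0.34 (SE 0.15, edgeR adjusted p = 0.194) and FTL one of -0.26 (SE 0.16, edgeR adjusted p = 0.400). With the uterus as a block, both were closer to 0, at -0.15 and -0.01.

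Endometrial TFRC had means of 14.6 ± 6.65 CPM (SD, n = 13) in Endo and 20.8 ± 7.33 CPM (SD, n = 15) in Endo-IVD Conc, and the groups overlapped, at 6.18 to 25.1 CPM and 10.5 to 34.3 CPM. Its log2 fold change was 0.51 (SE 0.22, edgeR adjusted p = 0.179). With the uterus as a block, the log2 fold change was 0.49 and the adjusted p 0.0299, past the threshold, with TFRC higher in 9 of 11 uteri. Explants under sections entered this fit and were part of the choice of members, so calls of members in endometrium carry that limit. Endometrial and conceptus TFRC thus had values of opposite sign, and the difference between the tissues was not tested because they were aligned and fitted apart.

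The wider heme and iron pathways were described from 6 lists of other genes, to be read against the 4.98% of all genes called higher and 2.15% called lower in endometrium and the 3.59% and 3.65% in conceptus tissue. Beside these shares, a count of 1 in a list of 10 to 15 genes is not a result about that list. Of the 14 genes of heme synthesis, all measured in both tissues, 0 rose and 1 fell in endometrium, TMEM14C, which moves porphyrin precursors in mitochondria (log2 fold change -0.45, SE 0.13, edgeR adjusted p = 0.0244). That call was kept in 8 of 13 fits that left out 1 uterus and lost without 14, 15, 19, 38 or 70, with an adjusted p of up to 0.0935. The list's median log2 fold change was -0.24, against -0.04 for all genes. With the uterus as a block 3 fell, where 633 of 16443 genes did: UROD and PPOX of the ring-building enzymes and TMEM14C. Without a block the edgeR adjusted p was 0.121 for UROD and 0.0539 for PPOX. ALAS1, the housekeeping counterpart of ALAS2, had 56.2 and 69.3 CPM on average, with an edgeR adjusted p of 0.671.

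In conceptus tissue 2 heme synthesis genes rose and 0 fell. ALAD, the enzyme after the entry step, rose from 217 to 358 CPM on average (log2 fold change 0.72, SE 0.21, edgeR adjusted p = 0.0474), and CLPX, a mitochondrial unfoldase that acts on the entry enzyme, from 39.5 to 56.6 CPM (0.52, SE 0.14, edgeR adjusted p = 0.0382). Both were higher in 7 of 7 conceptuses. With the conceptus as a block the adjusted p of ALAD was 0.0700, and leaving out any 1 conceptus lost its call, with an adjusted p of up to 0.113. ALAS1 had 241 and 239 CPM on average, with an edgeR adjusted p of 0.986. The median log2 fold change of the list was 0.22, against 0.01 for all conceptus genes.

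Of genes that break down or move heme, 2 of 12 rose in endometrium, where 4.98% of all genes did, and 0 fell. FLVCR2, a transporter of the heme exporter family, rose from 73.2 to 122 CPM (log2 fold change 0.74, SE 0.16, edgeR adjusted p = 0.00222) and was higher in 10 of 11 uteri. ABCG2, an exporter that carries porphyrins among many compounds, rose from 36.8 to 57.6 CPM (0.65, SE 0.19, edgeR adjusted p = 0.0353), with an adjusted p of 0.0784 with the uterus as a block. The ABCG2 call was lost without uterus 14, 17, 19, 39, 54, 69 or 70, with an adjusted p of up to 0.0972. In conceptus tissue 0 of 10 were called by edgeR, 3 had an unadjusted p of at most 0.05 and 1 was called by DESeq2.

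Iron uptake, storage and export genes other than the members gave 2 higher and 1 lower of 23 tested in endometrium, against 4.98% and 2.15% of all genes. SLC25A28, mitoferrin 2, which brings iron into mitochondria, rose from 93.4 CPM (64.1 to 122 CPM) to 326 CPM (181 to 504 CPM). The groups did not overlap, and the log2 fold change was 1.81 (SE 0.14, edgeR adjusted p = 1.1e-11), higher in 11 of 11 uteri. HFE, which binds TFRC and is mutated in hemochromatosis of humans, rose from 2.97 to 4.17 CPM (0.49, SE 0.15, edgeR adjusted p = 0.0413) and was higher in 11 of 11 uteri, and its call was lost without uterus 14, 16, 19, 38, 39, 45, 54, 56 or 69, with an adjusted p of up to 0.120. SLC39A14, a metal importer of the cell membrane, fell from 205 to 124 CPM (-0.72, SE 0.21, edgeR adjusted p = 0.0272), a call lost without uterus 14, 38, 39, 54 or 69, with an adjusted p of up to 0.0939. With the uterus as a block, the adjusted p was 2.5e-08 for SLC25A28, 0.00114 for HFE and 4.0e-05 for SLC39A14. SLC39A14 was lower in 10 of 11 uteri. In that fit HEPH, a ferroxidase that works with the exporter, also passed (adjusted p = 0.00874). The iron exporter SLC40A1 had 21.9 and 23.1 CPM on average, with an edgeR adjusted p of 0.900. In conceptus tissue 0 of 21 were called by edgeR and 0 by DESeq2, while 2 had an unadjusted p of at most 0.05, and SLC40A1 had 35.5 and 49.0 CPM (edgeR adjusted p = 0.450).

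The iron regulatory proteins ACO1 and IREB2 were not called in either tissue. ACO1 had log2 fold changes of 0.18 in endometrium (edgeR adjusted p = 0.273) and 0.18 in conceptus tissue (edgeR adjusted p = 0.298), and IREB2 of -0.04 (0.890 adjusted) and -0.01 (0.979 adjusted). In endometrium 0 of 11 regulators were called by edgeR and 0 by DESeq2, and 1 had an unadjusted p of at most 0.05. In conceptus tissue 1 of 10 rose, EGLN1, an iron-dependent prolyl hydroxylase that senses oxygen, from 125 to 182 CPM (0.55, SE 0.14, edgeR adjusted p = 0.0275). With the conceptus as a block, EPAS1, a hypoxia factor that EGLN1 marks for breakdown, passed as well, lower on endometrium (adjusted p = 0.0486).

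HMOX1 is repressed by BACH1, which heme releases from DNA, and activated by NRF2 (NFE2L2) with small MAF partners. Of the 15 genes of this list, 0 were called in endometrium by edgeR and 0 by DESeq2, while 3 had an unadjusted p of at most 0.05, with BACH1 at an edgeR adjusted p of 0.590 and NFE2L2 at 0.335. In conceptus tissue 1 rose, the small MAF gene MAFF, from 20.5 to 54.6 CPM (log2 fold change 1.41, SE 0.32, edgeR adjusted p = 0.0208), higher in 6 of 7 conceptuses. BACH1 had 27.7 and 18.1 CPM (-0.62, edgeR adjusted p = 0.131) and NFE2L2 214 and 154 CPM (-0.48, edgeR adjusted p = 0.159). The NRF2 targets NQO1, GCLM and TXNRD1 had edgeR adjusted p of 0.505, 0.506 and 0.969, and the list's median log2 fold change was -0.02, against 0.01 for all conceptus genes.

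Among genes of iron-sulfur cluster assembly in conceptus tissue, NDOR1 (log2 fold change 0.51, edgeR adjusted p = 0.0304) and MMS19 (0.45, edgeR adjusted p = 0.0499), of the cytosolic route, were higher, and IBA57 (-0.40, edgeR adjusted p = 0.0312), of the mitochondrial route, was lower. With the conceptus as a block none of the 3 passed (adjusted p = 0.0555 for NDOR1, 0.0656 for MMS19 and 0.0565 for IBA57). In that fit MAFF (adjusted p = 0.0383), EGLN1 (0.0430) and CLPX (0.0499) of the other lists passed. The calls of conceptus list genes each depended on single conceptuses, with MAFF kept in 5 of 8 fits that left out 1 conceptus (lost without 8, 26 or 47), EGLN1 in 3 (lost without 8, 22, 26, 47 or 71, with an adjusted p of up to 0.106) and the genes named here of heme synthesis and cluster assembly in 0 to 2. The highest adjusted p of these fits was 0.0781 for MAFF, 0.107 for CLPX, 0.127 for NDOR1, 0.152 for MMS19 and 0.0951 for IBA57, whereas SLC25A28 and FLVCR2 of endometrium were kept in 13 of 13.

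**Figure D5:**
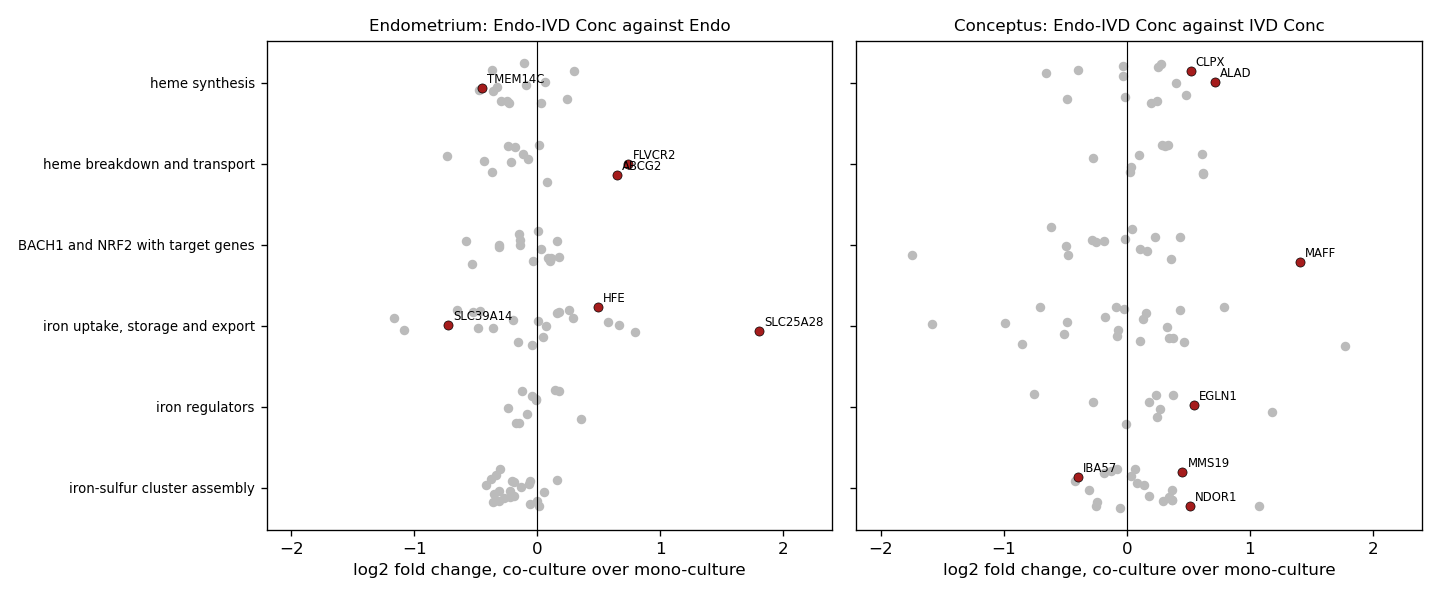
Log2 fold change of co-culture over mono-culture for genes of the 6 heme and iron lists in endometrium (left) and conceptus tissue (right), 1 point a gene, with genes past an adjusted p of 0.05 in red and named. SLC25A28 at 1.81 lies farthest right among called genes of endometrium, and MAFF at 1.41 among those of conceptus tissue.

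Red cell and blood-forming genes were also followed in endometrium. EPOR fell from 5.68 to 3.04 CPM (log2 fold change -0.90, SE 0.19, edgeR adjusted p = 0.00185) and was lower in 11 of 11 uteri, the only 1 of 9 erythroid markers called. AHSP, the chaperone of free α-globin, had 0.701 and 0.633 CPM (edgeR adjusted p = 0.830), and GYPC had 21.1 and 22.0 CPM (edgeR adjusted p = 0.857). SPTB, GATA1, NFE2, KEL and BPGM had edgeR adjusted p from 0.377 to 0.953, and SLC4A1, GYPB, EPB42, KLF1, HEMGN, TRIM10, TRIM58 and CA1 were below the filter, with RHAG at 0 in all 28 libraries. Of 8 blood-forming transcription factors 2 rose (against 4.98% of all genes), TAL1 from 27.7 to 52.1 CPM (0.91, edgeR adjusted p = 0.00168) and FLI1 from 82.5 to 105 CPM (0.35, edgeR adjusted p = 0.0406), both also expressed in endothelium. The FLI1 call was lost without uterus 14, 17, 19, 38, 53 or 70, with an adjusted p of up to 0.113. With the uterus as a block the adjusted p of FLI1 was 0.0338. Endothelial markers gave 0 higher and 2 lower of 12, against 2.15% of all genes called lower. With the uterus as a block they gave 1 higher and 6 lower, where 10.5% of all genes were called in either direction. The part of endothelial cells in these changes was not tested. In conceptus tissue ZFPM1, a cofactor of GATA1, fell from 15.9 to 8.39 CPM (-0.92, edgeR adjusted p = 0.0237), lower in 7 of 7 conceptuses, with the call lost without conceptus 8, 26, 66 or 71 and an adjusted p of up to 0.0951. With the conceptus as a block the adjusted p of ZFPM1 was 0.0260. GFI1B, a transcriptional repressor that acts in erythroid and platelet precursors, had 0.291 and 1.59 CPM (2.45, SE 0.90, edgeR adjusted p = 0.0991).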

How the data were processed

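Per the authors' processing notes and methods, reads were trimmed (Trimmomatic), mapped to the ARS-UCD1.2 genome by STAR for endometrium or HISAT2 for conceptus tissue, and assigned to genes by featureCounts. No source used here gives versions or how strand was set. The deposited values are raw counts, from a stranded kit with poly(A) enrichment. Of the 27270 endometrial rows 6635 had no symbol, 1 row with no gene name was left out, and the conceptus table lacks genes with few counts.

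Counts of each tissue were analysed alone in R 4.3.3 with edgeR 4.0.16 (filterByExpr, at least 10 counts and 15 in total, TMM, robust quasi-likelihood fit, co-culture against mono-culture). That fit had no term for the animal, so libraries of 1 animal were treated as independent. The call threshold was 0.05 on p adjusted by Benjamini-Hochberg over 16443 or 14746 genes. Alternatives were a replicate block, summed co-cultures of 1 animal, DESeq2 1.42.0, its size factors, no filter, 2 factors of unwanted variation and left-out animals; 3 were added after seeing the data. Fits were tested on simulated counts.

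Pairing comes from animal numbers in the titles. With group means removed, r between libraries of 1 animal exceeded 0.1 for all 15 endometrial pairs, with a median of 0.349 beside -0.0382 for libraries of different animals, and for all 9 conceptus pairs, with 0.497 beside -0.134.

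Sections and explants were compared as CPM across tables aligned with different tools, so shares are descriptions. Per-animal directions used log2(CPM + 0.1). Correlations used log2 CPM with a prior count of 2. The text names all 8 members, measured globins and erythroid markers, up to 4 called genes a list with the smallest adjusted p, 6 regulators whether called or not, and the 8 genes most like HBA and HMOX1. A few genes that the rule takes in are not reported here. Members and lists were chosen with earlier results of these data known.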

Additional observations from a re-analysis of the deposited data

Results flagged for a closer look

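Of 16 sets of member values in conceptus tissue (8 genes in each of 2 groups), 2 held a library far from the rest. Chance flags about 1 in 20 such sets. ALAS2 in the section of conceptus 22 on uterus 19 was 6.09 CPM, against 0.165 to 2.08 CPM in the other 8 co-cultured sections. FTL in the section of conceptus 47 on uterus 54 was 3230 CPM, against 1570 to 2359 CPM in the others.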

How the results depend on the processing

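Counts of called genes moved between fits, as did the members called in conceptus tissue, given above. In endometrium, genes higher and lower in co-culture numbered 819 and 353. They numbered 1427 and 1397 with 2 factors of unwanted variation, lower genes 633 with a replicate block, 569 with DESeq2, 192 without uteri 38 and 69 and 138 without uteri 19 and 39, and leaving out 1 uterus gave 678 to 912 higher and 127 to 477 lower. In conceptus tissue, 530 higher and 538 lower became 334 and 319 with a replicate block, 1125 and 1060 with a replicate block and co-cultures of 1 animal summed, 1172 and 1011 with DESeq2, 2250 and 2013 with 2 factors, and 49 to 615 and 47 to 667 when 1 conceptus was left out.

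Called heme and iron genes other than members numbered 7 in endometrium, against 26 with 2 factors, 4 without uteri 38 and 69, 3 without uteri 19 and 39 and 3 to 12 without 1 uterus. In conceptus tissue they numbered 8, against 5 with a replicate block, 15 with a replicate block and co-cultures of 1 animal summed, 5 with no filter on low counts, 30 with 2 factors and 0 to 8 without 1 conceptus. The cause was not tested.

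The sign of the endometrial log2 fold change turned for HBA with 2 factors (-0.0011) and without uteri 19 and 39 (-0.27), and between -0.15 and 0.36 without 1 uterus, and for HBQ1 with a replicate block (0.093) and with that block and co-cultures summed (0.075). HMOX1 passed with 2 factors (adjusted p = 0.0295) and without uterus 16 (0.0373). TFRC passed with a replicate block (0.0299), with that block and co-cultures summed (0.0322) and with 2 factors (0.0470). The replicate block changed no other member's call in endometrium. The median share of explant HBA in sections was 31.7% to 54.2% without 1 conceptus, the highest without conceptus 26.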
